A study of Mus musculus with 12 samples.

Results

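The orphan nuclear receptors of the Nr5a and Nr0b subfamilies were followed through mouse gonads that carry or lack Foxl2. The members, Nr5a1, Nr5a2, Nr0b1 and Nr0b2, were taken by gene symbol, each by its probe set with the highest mean on a platform. All 4 were measured on both platforms, among 19938 genes on the adult arrays and 18194 on the P3 arrays. The study set out to compare gonads with and without Foxl2, a forkhead transcription factor of granulosa cells. The adult set held 3 Foxl2 mutant ovaries labelled Foxl2 flox/flox x CreEBD, 3 wild-type testes and 2 wild-type ovaries, each from 1 animal aged 8 weeks. The labels used here name neither the promoter of the Cre nor the time of the deletion, and describe no Cre transgene in the wild-type animals. The set of postnatal day 3 (P3) held 2 arrays of Foxl2 KO ovaries and 2 of wild-type ovaries, each a pool of more than 10 females. Whole organs were used for ovaries and 0.25 of an organ for testes, so that every level is a mean over all cells of the sample.

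Nr5a1 (steroidogenic factor 1) and Nr5a2 (liver receptor homologue 1) are nuclear receptors that bind DNA as monomers, at closely similar sites, and switch on genes of steroid synthesis. In the mouse ovary Nr5a1 is known from granulosa and theca cells and Nr5a2 from granulosa and luteal cells, where it is needed for ovulation, and in the testis Nr5a1 acts in Sertoli and Leydig cells. Nr0b1 (Dax1) and Nr0b2 (Shp) lack a classical DNA-binding domain, bind other receptors, the Nr5a pair among them, and repress them. Nr0b1 is an X-linked gene of the gonads and the adrenal cortex, and Nr0b2 is best known for the feedback control of bile acid synthesis in the liver.

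The stretch of 250 bases before the start of a gene is shown for the members whose levels the comparisons turn on and for Nr0b2, since the Nr5a pair is known to bind short DNA words before its target genes. Sequences are from RefSeq (GRCm38.p6), run 5′ to 3′ on the strand of the gene and end just before its start. Capitals mark a match on either strand to AGGTCA, the core word of many nuclear receptors, or to CAAGGNCA, the longer Nr5a word. The first Nr5a2 start is preceded by chr1:136960449-136960698 (minus strand), Nr0b1 by chrX:86191525-86191774 (plus strand) and Nr0b2 by chr4:133553126-133553375 (plus strand).
Nr5a2: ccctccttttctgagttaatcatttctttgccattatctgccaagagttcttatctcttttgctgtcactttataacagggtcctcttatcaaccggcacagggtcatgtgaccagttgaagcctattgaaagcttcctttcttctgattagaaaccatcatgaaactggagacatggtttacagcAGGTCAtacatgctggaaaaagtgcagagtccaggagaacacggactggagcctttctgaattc
Nr0b1: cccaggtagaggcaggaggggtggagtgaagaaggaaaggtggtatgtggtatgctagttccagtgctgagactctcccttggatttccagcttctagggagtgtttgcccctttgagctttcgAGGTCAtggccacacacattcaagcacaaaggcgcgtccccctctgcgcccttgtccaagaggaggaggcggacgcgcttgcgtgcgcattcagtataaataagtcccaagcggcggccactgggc
Nr0b2: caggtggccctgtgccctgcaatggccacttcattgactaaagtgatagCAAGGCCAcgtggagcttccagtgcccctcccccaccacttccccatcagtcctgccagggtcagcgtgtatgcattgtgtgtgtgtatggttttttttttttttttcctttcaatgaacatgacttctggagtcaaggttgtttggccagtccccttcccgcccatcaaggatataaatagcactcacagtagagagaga
Nr5a2 held 1 AGGTCA at 64 to 59 bases before the start, and Nr0b1 held 1 at 126 to 121 bases. Nr0b2 held the longer word as CAAGGCCA at 201 to 194 bases before its start. A second annotated Nr5a2 start, preceded by chr1:136953631-136953880 (minus strand), had no match in its window. The forkhead core GTAAACA was in none of these 4 windows. Of the 32851 windows of the same length before RefSeq starts, 14.0% held AGGTCA, 5.53% held CAAGGNCA and 3.17% held GTAAACA. The longer word with T at its free base contains the shorter one. A match is a run of letters, and no binding was measured here. The entry for Nr5a1 was not matched.

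Foxl2 itself served as the check of the labels. Its adult level was 5.73 to 6.04 in mutant ovaries and 5.22 to 5.38 in testes, against 8.75 and 8.81 in wild-type ovaries (log2 units of RMA, the authors' normalization). At P3 its signal was 186.4 and 153.7 in KO pools, against 814.5 and 829.9 in wild-type pools (linear units of MAS5, the authors' algorithm). The adult arrays had medians of 4.83 to 4.94, and every P3 array a mean of about 500 after 2% was trimmed at each end. Within groups, arrays correlated at r of 0.957 to 0.992 across probe sets on the log scale. The 2 adult wild-type ovaries differed from each other in marker genes of cell types, given beside the results they touch. Mean levels of 9 Sertoli cell genes were 8.39 to 8.70 in mutant ovaries and 7.06 to 7.14 in testes, against 5.45 and 5.65 in wild-type ovaries. Those of 9 granulosa cell genes were 7.43 to 7.56 in mutant ovaries and 5.20 to 5.39 in testes, against 9.48 and 8.39 in wild-type ovaries 1 and 2. The 8 spermatid genes averaged 11.04 to 11.17 in testes, against 3.99 and 4.03 in wild-type ovaries, and 3.75 to 3.90 in mutant ovaries. How precise the array values are depends on the small number of arrays in each group.

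In adult mutant ovaries Nr0b1 was 18.2-fold higher than in wild-type ovaries and Nr5a2 13.4-fold lower, while neither Nr5a1 nor Nr0b2 passed the test. So 2 of the 4 genes were called in this comparison, in which 16.2% of all genes were called at an adjusted p under 0.05 (limma, Benjamini-Hochberg over all genes), 9.55% higher and 6.66% lower. Each subfamily thus had 1 member that was called and 1 that was not. The groups did not overlap for those same 2 members, and for 39.9% of all genes. The plot of adult levels shows every array.

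**Figure D1:**
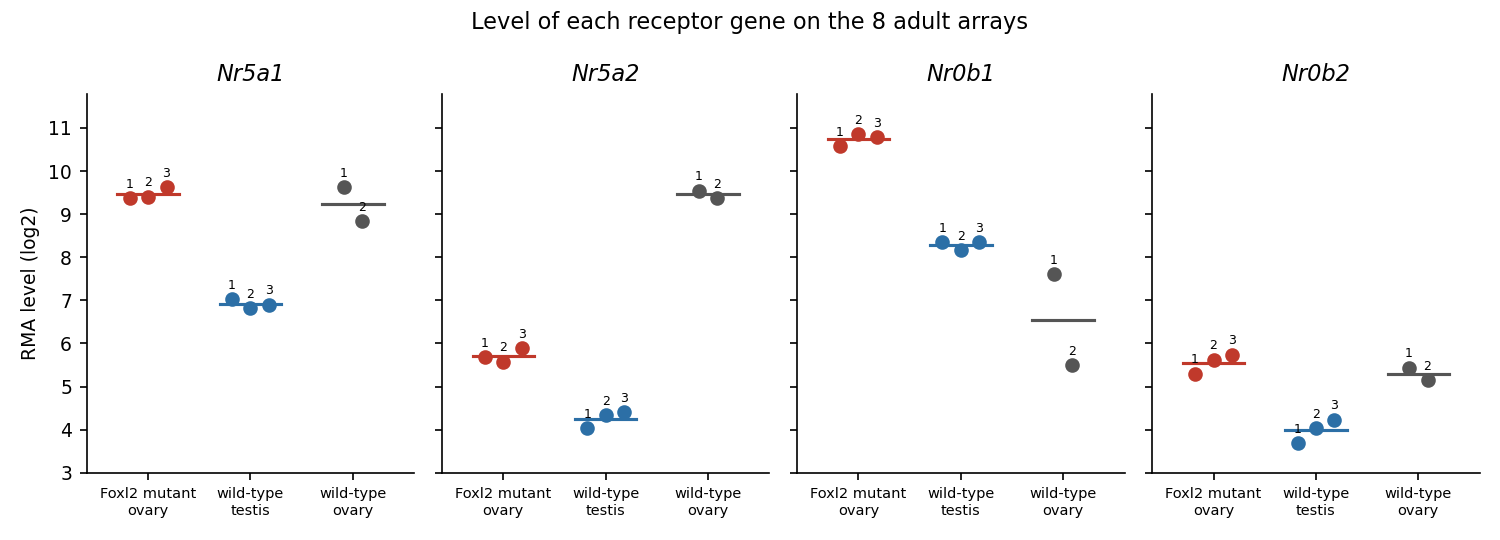
RMA level (log2) of Nr5a1, Nr5a2, Nr0b1 and Nr0b2 on each adult array, in Foxl2 mutant ovaries (red, n = 3), wild-type testes (blue, n = 3) and wild-type ovaries (grey, n = 2); points are arrays, the small digit is the replicate and the bar is the group mean. Nr5a2 lay between 5.58 and 5.89 in mutant ovaries and at 9.54 and 9.37 in wild-type ovaries, and Nr0b1 between 10.57 and 10.86 in mutant ovaries and at 7.61 and 5.50 in wild-type ovaries.

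Nr5a1, the activator needed for the gonads and adrenals to form, had levels of 9.37, 9.41 and 9.62 in mutant ovaries and 7.03, 6.82 and 6.90 in testes, against 9.63 and 8.84 in wild-type ovaries. The testes were the lowest group, and the mutant ovaries lay within the range of the wild-type ovaries. Group means were 9.47 ± 0.14 in mutant ovaries and 6.92 ± 0.10 in testes, against 9.23 ± 0.56 in wild-type ovaries (SD, n = 3, 3 and 2). Mutant and wild-type ovaries were neighbours that did not differ beyond their spread, at a log2 difference of 0.23 ± 0.20 (SE, adjusted p = 0.498). The difference depended on which wild-type ovary was used: it was 0.63 without wild-type ovary 1 (adjusted p = 0.0119) and -0.16 without wild-type ovary 2 (adjusted p = 0.531). Wherever a value without 1 wild-type ovary is given, the other is the whole wild-type arm, assumed to vary like the mutant ovaries and testes, so that its test leaves out the gap between the wild-type ovaries. Testes differed from wild-type ovaries in Nr5a1 by -2.32 ± 0.20 (adjusted p = 2.37e-06), and mutant ovaries stood 2.55 ± 0.18 above testes (adjusted p = 3.62e-07).

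Nr5a2, the paralog that ovulation depends on, had levels of 5.68, 5.58 and 5.89 in mutant ovaries and 4.03, 4.34 and 4.40 in testes, against 9.54 and 9.37 in wild-type ovaries. All mutant ovaries and testes lay far below both wild-type ovaries, which differed from each other by only 0.17. Mean levels were 5.72 ± 0.16 in mutant ovaries and 4.26 ± 0.20 in testes, against 9.46 ± 0.12 in wild-type ovaries. The log2 difference was -3.74 ± 0.16 between mutant and wild-type ovaries (SE, adjusted p = 3.19e-07), and it stayed between -3.83 and -3.65 when each of the 8 arrays was left out. Among the 19938 genes this was the 6th lowest difference. Within each array, Nr5a2 stood at the 58.7th to 63.8th percentile of probe sets in mutant ovaries and the 35.0th to 42.5th in testes, against the 96.1st and 95.3rd in wild-type ovaries. In these whole organs fewer cells that express a gene and less RNA per cell cannot be told apart. Testes differed from wild-type ovaries by -5.20 ± 0.16 (adjusted p = 7.10e-10), and mutant ovaries 1.46 ± 0.14 above testes (adjusted p = 4.90e-06), so the mutant level was between the other groups without overlap with either.

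The unequal change of the Nr5a pair was also taken within each array, as the Nr5a2 level minus the Nr5a1 level. Between mutant and wild-type ovaries it differed by -3.97, and by -4.28 to -3.66 when single arrays were left out. The exact permutation test, two-sided, gave p = 0.1, the smallest that the 10 splits of 5 arrays allow.

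Nr0b1, the corepressor that is dosage-sensitive in sex development, had levels of 10.57, 10.86 and 10.79 in mutant ovaries and 8.35, 8.16 and 8.35 in testes, against 7.61 and 5.50 in wild-type ovaries. Every mutant ovary was above every testis, and every testis above both wild-type ovaries. Group means were 10.74 ± 0.15 in mutant ovaries and 8.29 ± 0.11 in testes, against 6.55 ± 1.49 in wild-type ovaries. The log2 difference was 4.19 ± 0.45 for mutant against wild-type ovary (SE, adjusted p = 1.30e-04), the 17th highest of all genes. In testis against wild-type ovary it was 1.73 ± 0.45 (adjusted p = 0.0062), and in mutant ovary against testis 2.45 ± 0.40 (adjusted p = 2.73e-04). Nr0b1 thus reached the 98.7th to 99.0th percentile of probe sets on the mutant arrays and the 87.9th to 89.7th on the testis arrays, against the 83.6th and 58.8th on the wild-type ovary arrays.

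The size of the Nr0b1 difference turned on the wild-type ovaries, which were 2.11 log2 units apart, a gap at the 99.6th percentile of all genes. Against wild-type ovary 1 alone the mutant difference was 3.14, and against wild-type ovary 2 alone it was 5.24. For testis these values were 0.68 and 2.79. All 4 passed the threshold, but with the spread of the mutant ovaries and testes only, so that the gap between the wild-type ovaries was left out of their error. Wild-type ovary 1 was also higher in 9 of 10 oocyte genes (mean levels of 6.88 in ovary 1 and 5.28 in ovary 2) and in 8 of 9 granulosa cell genes, and lower in all 3 corpus luteum genes (8.53 and 10.53). Their part in the Nr0b1 gap was not tested. The plot of marker lists shows that mutant ovaries had oocyte means of 6.45 to 6.72, luteal means of 8.20 to 9.71 and Leydig and theca means of 8.13 to 8.95, the last against 7.81 and 8.25 in wild-type ovaries.

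**Figure D2:**
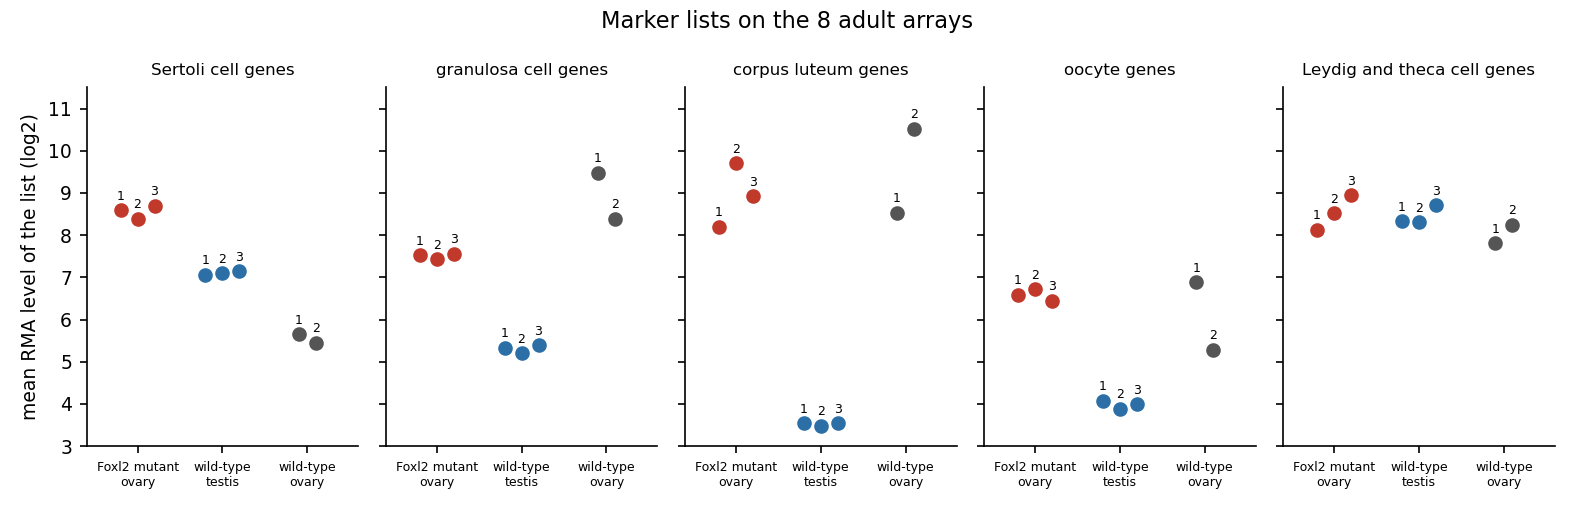
Mean RMA level (log2) of 5 marker lists on each adult array, in Foxl2 mutant ovaries (red), wild-type testes (blue) and wild-type ovaries (grey); each point is 1 array, with its replicate number. Sertoli cell genes averaged 8.39 to 8.70 in mutant ovaries and 5.45 to 5.65 in wild-type ovaries, and wild-type ovaries 1 and 2 differed in the luteal, oocyte and granulosa lists.

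Nr0b2, the corepressor of bile acid feedback, had levels of 5.30, 5.63 and 5.74 in mutant ovaries and 3.68, 4.04 and 4.23 in testes, against 5.44 and 5.15 in wild-type ovaries. Mutant and wild-type ovaries overlapped, and all testes lay below them. Mean levels were 5.55 ± 0.23 in mutant ovaries and 3.98 ± 0.28 in testes, against 5.30 ± 0.20 in wild-type ovaries. The log2 difference was 0.26 ± 0.20 between mutant and wild-type ovary (SE, adjusted p = 0.440). It was -1.31 ± 0.20 between testis and wild-type ovary (adjusted p = 1.65e-04), and mutant ovaries exceeded testes by 1.57 ± 0.18 (adjusted p = 1.50e-05). Nr0b2 lay at the 55.6th to 62.1st percentile of probe sets in mutant ovaries and the 29.3rd to 39.7th in testes, against the 57.9th and 53.9th in wild-type ovaries.

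In testis against wild-type ovary all 4 members were called, 1 higher and 3 lower, where 60.3% of all genes were called, 24.4% higher and 35.9% lower. The groups did not overlap for any member, nor for 73.8% of all genes. In mutant ovary against testis all 4 were higher, where 37.5% of all genes were called higher, 24.3% lower and 61.8% in either direction. Again no member overlapped between the groups, and 69.5% of all genes did not. These comparisons share arrays with each other and with that of mutant and wild-type ovaries. Per array, the order of the groups was mutant ovary, testis, wild-type ovary for Nr0b1 and wild-type ovary, mutant ovary, testis for Nr5a2. The plot of differences sets the members side by side.

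**Figure D3:**
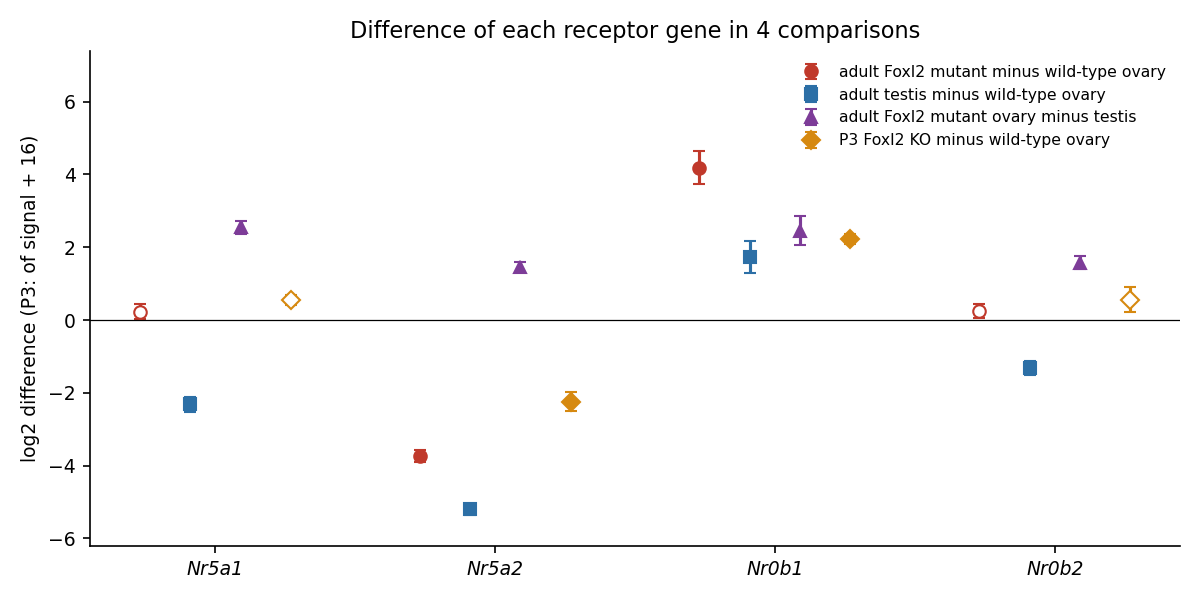
Log2 difference of each gene in adult Foxl2 mutant minus wild-type ovary (circles), adult testis minus wild-type ovary (squares), adult Foxl2 mutant ovary minus testis (triangles) and P3 Foxl2 KO minus wild-type ovary (diamonds); bars are the standard error of the fit, and open symbols are differences not called. Nr0b1 was positive in all 4 comparisons, and Nr5a2 was negative in all but mutant ovary against testis.

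At P3 the same 2 genes were called as in adult ovaries: Nr0b1 was higher and Nr5a2 lower in KO than in wild-type pools. That is 2 of 4 members, where 0.324% of all genes were called, or 59 genes. The P3 differences are on the scale of log2(signal + 16), which understates the change of dim genes. The groups did not overlap for any of the 4 members, nor for 38.9% of all genes.

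Nr0b1 had signals of 2474.5 and 2736.8 in KO pools, against 523.8 and 564.6 in wild-type pools. Both KO pools were more than 4 times as bright as either wild-type pool. The log2 difference was 2.23 ± 0.14 (SE, n = 2 pools each, adjusted p = 0.00865), the 9th highest of 18194 genes. It was 2.15 to 2.30 when single pools were left out, which leaves 1 pool in that arm, and missed the threshold without KO pool 1 (adjusted p = 0.188) or KO pool 2 (adjusted p = 0.235), and in the fit without an intensity trend (adjusted p = 0.150).

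Nr5a2 had signals of 87.8 and 120.1 in KO pools, against 561.2 and 533.8 in wild-type pools. The KO pools were the lower ones by a wide margin, and the wild-type pools differed little. The log2 difference was -2.24 ± 0.26 (SE, n = 2 pools each, adjusted p = 0.0419), the 23rd lowest of all genes. This call was less stable than the size: leaving out each pool gave -2.44 to -2.05 with adjusted p of 0.129 to 0.333. The call was also lost without the intensity trend (adjusted p = 0.170), with every probe set in the fit (adjusted p = 0.0722) and with probe sets of a gene averaged (-1.42, adjusted p = 0.158). Nr5a2 had 3 other, dimmer probe sets on this platform, all lower in both KO pools than in both wild-type pools. The brightest of these gave 41.8 and 28.7 in KO pools, against 223.5 and 204.0 in wild-type pools (-2.18 ± 0.39, adjusted p = 0.202 over all probe sets). The remaining pair differed by -0.79 and -0.48, with signals of at most 109.3 in KO pools and 165.5 in wild-type pools.

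Nr5a1 had signals of 2134.3 and 1987.8 in KO pools, against 1521.4 and 1309.5 in wild-type pools. Both KO pools were the brighter ones, by a log2 difference of 0.54 ± 0.14 that missed the threshold (SE, adjusted p = 0.231). A second Nr5a1 probe set was dim, with 7.9 and 5.4 in KO pools, against 5.1 and 54.9 in wild-type pools, and averaging it in turned the sign, to -0.12. Nr0b2 had signals of 257.3 and 156.6 in KO pools, against 131.4 and 130.8 in wild-type pools. KO pool 1 alone was well above the others, and the log2 difference was 0.56 ± 0.33 (adjusted p = 0.702). Nr5a2 minus Nr5a1 differed by -2.78 between KO and wild-type pools, with an exact permutation p = 0.333, two-sided, the smallest that 6 splits allow.

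**Figure D4:**
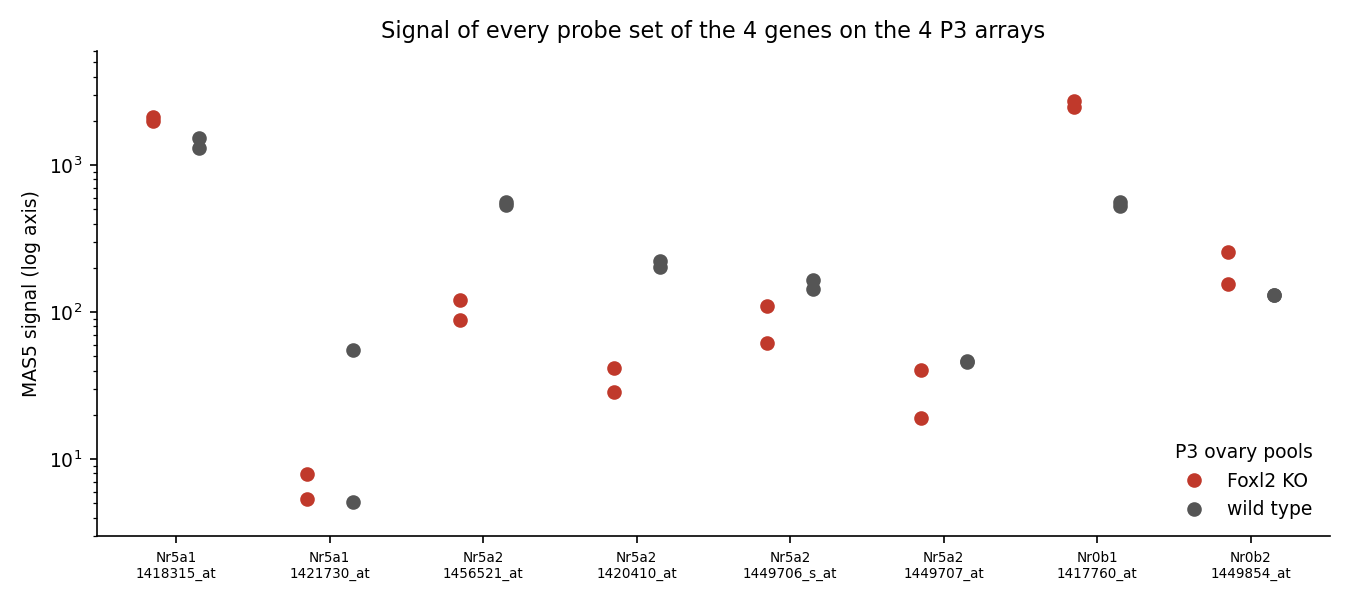
MAS5 signal (log axis) of every probe set of the 4 genes on the P3 arrays, with Foxl2 KO pools (red, n = 2) left of wild-type pools (grey, n = 2); each point is 1 pool. The probe set of Nr0b1 was brighter in KO pools and all 4 of Nr5a2 were dimmer, the leftmost of them at 87.8 and 120.1 in KO pools and 561.2 and 533.8 in wild-type pools.

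Among marker genes of cell types at P3, 1 of 9 granulosa cell genes, 2 of 10 oocyte genes and 1 of 4 liver genes were called lower in KO pools. Of 10 Sertoli cell genes, 1 was called higher. The shares over all genes were 0.187% lower and 0.137% higher. None of these marker calls held in the fit without an intensity trend, in which 0 genes passed. The sums of a list rest mostly on its brightest genes. Summed signals of 9 granulosa cell genes were 6405 and 7601 in KO pools, against 10297 and 10867 in wild-type pools. Those of 10 Sertoli cell genes were 9267 and 9376 in KO pools, against 7270 and 7993 in wild-type pools. The Sertoli list was split, with 6 genes higher and 4 lower in KO pools, called or not. Its brightest gene, Defb19, was at 2958.7 and 2892.9 in KO pools, against 3024.0 and 3449.4 in wild-type pools. The sum of 10 oocyte genes was 59854 and 63566 in KO pools, against 79631 and 86345 in wild-type pools. Adrenal gland genes, markers of a neighbouring tissue that also makes Nr5a1 and Nr0b1, summed to 1472 and 1682 in KO pools, against 1271 and 1475 in wild-type pools. On the adult arrays 6 adrenal genes averaged 4.06 to 4.44 in mutant ovaries and 3.68 to 3.83 in testes, against 4.09 and 4.10 in wild-type ovaries, below the array medians. The adrenal gene Cyp21a1 stood out in mutant ovary 3, at 6.41, against 4.13 and 4.27 in wild-type ovaries. The 4 liver genes averaged 3.39 to 3.52 in mutant ovaries and 3.37 to 3.43 in testes, against 3.88 and 4.51 in wild-type ovaries. The higher wild-type means rested on Apoa1, at 8.22 and 5.56 in wild-type ovaries 1 and 2, against 4.28 to 4.70 in mutant ovaries. Alb, Ttr and Fgb lay at 2.91 to 3.83 in wild-type ovaries. No marker of any list was at 0. The part of these cell types in the differences of the receptors was not tested.

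Among all nuclear receptors measured, Nr0b1 and Nr5a2 stood at the ends of the range. Of 45 in adult ovaries, Nr0b1 had the highest difference between mutant and wild-type ovary and Nr5a2 the lowest, while Nr0b2 was the 7th and Nr5a1 the 8th highest. Next to them came Vdr, the vitamin D receptor, at 2.99 ± 0.14 (SE, adjusted p = 5.13e-07), and Esr2, the oestrogen receptor of granulosa cells, at -2.41 ± 0.44 (adjusted p = 0.00397). The Esr2 difference was -3.41 against wild-type ovary 1 alone and -1.42 against ovary 2 alone. Of 44 receptors at P3, Nr0b1 was again the highest and Nr5a2 the lowest, and Vdr came next to Nr0b1 at 1.24 ± 0.17 without passing the test (adjusted p = 0.0621). In testis against wild-type ovary Nr5a2 was the lowest of 45 and Nr5a1 the 5th lowest, and Nr0b1 was second to Nr6a1, the germ cell nuclear factor (2.99 ± 0.18).

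Of the other 41 receptors, 3 rose in mutant against wild-type ovaries (Vdr, Thra and Nr3c2) and 6 fell (Esr2, Pparg, Nr4a1, Rarg, Nr2c1 and Esrrb). Over all genes 9.55% were called higher and 6.66% lower. The median difference of the 41 was -0.08, beside -0.02 over all genes. Thra, a thyroid hormone receptor, differed by 1.10 ± 0.22 (0.64 without wild-type ovary 2), and Pparg, a lipid-sensing receptor, by -1.79 ± 0.16. The count of 6 was 8 without wild-type ovary 1, 4 without mutant ovary 1, 3 without any one of the other arrays, and 2 with the ovaries alone in the fit. The count of 3 was 5 without wild-type ovary 1, and 2 without any one testis or without mutant ovary 1 or 2. When each of the 8 arrays was left out, Nr3c2 was called in 2 of 8 fits (0.50 to 1.43), Nr2c1 in 2, Nr4a1 in 1 (-2.55 to -0.64) and Esrrb in 0. At P3 none of 40 passed, and 4 had an unadjusted p under 0.05.

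Steroid synthesis genes, which the Nr5a pair activates, did not move as 1 group. Of 11 genes listed, 9 had a value in adult ovaries, and Cyp19a1 (aromatase) and Fdxr had none. In mutant against wild-type ovaries 4 of the 9 fell and 1 rose, where 6.66% of all genes fell and 9.55% rose. The median difference of the 9 was -0.47. Star differed by -0.19 ± 0.76, with wild-type ovaries 1 and 2 at 7.73 and 11.17, and Cyp17a1 by 1.48 ± 0.46, neither called. The falls were Hsd17b1, which makes oestradiol in granulosa cells (-3.46 ± 0.22), Hsd3b1 (-1.41 ± 0.24), the electron donor Fdx1 (-1.33 ± 0.27, and -0.82 without wild-type ovary 2) and Scarb1, the receptor that takes up lipoprotein cholesterol (-0.93 ± 0.25). Scarb1 missed the threshold with the ovaries alone in the fit and in 4 of the 8 fits that left out 1 array, with -0.42 against wild-type ovary 1 alone and -1.45 against ovary 2 alone. Hsd17b3, the testosterone-making enzyme of the testis, rose by 0.90 ± 0.19, and 2 genes of the list rose without any one of wild-type ovaries 1 and 2 or mutant ovary 1. At P3, 2 of 8 fell, Hsd3b1 (-4.97 ± 0.25, adjusted p = 0.00653) and Hsd17b1 (-3.09 ± 0.28, adjusted p = 0.0208), where 0.187% of all genes were called lower. Leaving out 1 pool left 1 or 0 of these calls, and the fit without an intensity trend 0.

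Of 6 other gonadal genes known to be under Nr5a control, 2 rose and none fell in mutant against wild-type ovaries (median -0.10). Over all genes 9.55% were higher and 6.66% lower. Sox9, a Sertoli cell gene that Nr5a1 helps to switch on, differed by 3.68 ± 0.14 and Amhr2, the receptor of anti-Müllerian hormone, by 1.92 ± 0.29. The counts changed with the wild-type ovary: 4 rose without wild-type ovary 1, and 3 fell without wild-type ovary 2. Amh, the hormone itself, had -0.59 ± 0.63, and Inha, the inhibin alpha subunit, -0.43 ± 0.19, neither called. At P3 none of 6 passed, 3 had an unadjusted p under 0.05, and Inha was at -0.99 ± 0.13 (adjusted p = 0.0519).

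Of 11 ovulatory and cumulus genes, a set that depends on Nr5a2 in the mouse, 1 rose and 1 fell in mutant against wild-type ovaries (median 0.11), near the 9.55% higher and 6.66% lower of all genes. Tnfaip6, which builds the cumulus matrix, differed by 1.23 ± 0.25 and Gja1, the connexin of granulosa cells, by -1.09 ± 0.12. In wild-type ovaries all genes of the list but Gja1 and Adamts1 averaged 2.66 (Sult1e1) to 4.53 (Btc). These means lay below the medians of the wild-type ovary arrays (4.86 and 4.88), so that a fall of these genes could hardly show. Without wild-type ovary 1, 2 rose. None of 11 passed at P3, where 4 had an unadjusted p under 0.05 and Gja1 had -0.91 ± 0.17 (adjusted p = 0.111).

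**Figure D5:**
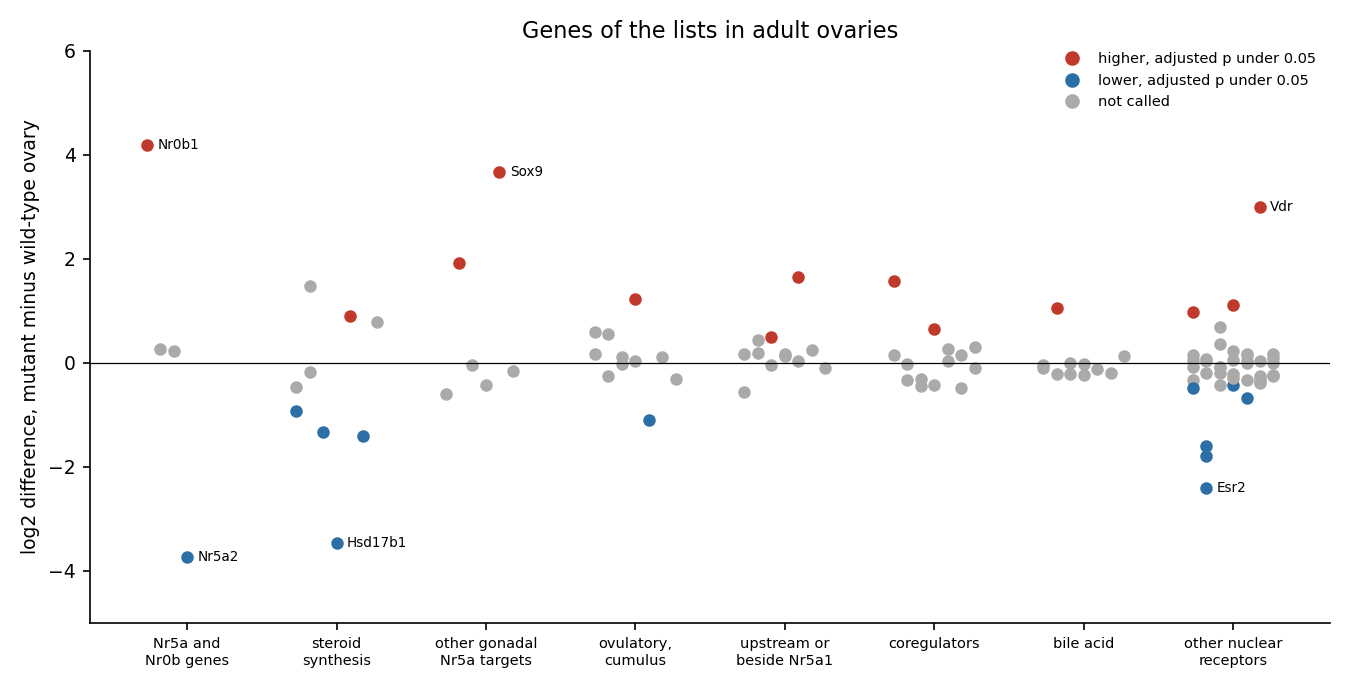
Log2 difference of each measured gene of the 4 receptors and of 7 lists in adult Foxl2 mutant minus wild-type ovary; each point is 1 gene, red where called higher, blue where called lower and grey where not called, and genes beyond 2 log2 units are named. Nr0b1 at 4.19 and Nr5a2 at -3.74 were the extreme points of all the lists shown.

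Of 12 factors known to act upstream of or beside Nr5a1, 2 rose in mutant against wild-type ovaries, where 9.55% of all genes were higher. These were Wt1, needed for the gonadal ridge and for Sertoli cells (1.66 ± 0.21), and the E-box factor Usf1 (0.49 ± 0.14). Usf1 was near the threshold (adjusted p = 0.0365) and was called in 1 of the 8 fits that left out 1 array, and the count was 1 without any one testis or mutant ovary, and 3 without wild-type ovary 1. Without wild-type ovary 2, 1 of the 12 fell. In testis against wild-type ovary 11 of the 12 fell, as Nr5a1 did, among them Gata4 (-2.73 ± 0.22), Gata6 (-2.91 ± 0.15) and Cited2 (-2.42 ± 0.11), where 35.9% of all genes fell. Spermatid genes had the high testis levels given above, and their part in these falls was not tested. At P3 none of 12 passed, and 3 had an unadjusted p under 0.05.

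Of 14 coregulators of nuclear receptors, 2 rose in mutant against wild-type ovaries and none fell, where 9.55% of all genes were higher and 6.66% lower. The 2 were the coactivators Ncoa2 (1.58 ± 0.15) and Ppargc1a (0.66 ± 0.14). Without wild-type ovary 2, 2 fell, and without wild-type ovary 1 or mutant ovary 2, 1 fell. In testis against wild-type ovary 5 rose and 5 fell, where 24.4% of all genes were higher and 35.9% lower, with Ddx20, a helicase that binds Nr5a1 and represses it, at 3.27 ± 0.11. Of 11 bile acid genes, the setting in which Nr0b2 is best known, 1 rose in mutant ovaries, near the 9.55% of all genes that were higher. It was the sterol hydroxylase Cyp27a1 (1.05 ± 0.23, and 0.60 without wild-type ovary 2), which missed the threshold with the ovaries alone in the fit. Nr1h4, the bile acid receptor that induces Nr0b2 in liver, had -0.23 ± 0.21. In testis, where Nr0b2 was lower, Nr1h4 was at -1.05 ± 0.21. Nr1h4 was dim already in wild-type ovaries, at 4.53 and 4.71, below the medians of those arrays (4.86 and 4.88). At P3 none of 13 coregulators and none of 10 bile acid genes passed, and 1 of each had an unadjusted p under 0.05. Over all genes at P3, 1734 had an unadjusted p under 0.05.

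The genes whose levels followed each member most closely were ranked by Pearson correlation over the 8 adult arrays, among 10466 genes with a range of at least 1 log2 unit. Since the arrays fall into 3 groups, these values describe the pattern of the groups and carry no test. For Nr5a2 they were Glb1 (r = 0.995), Fst (0.993) and Myct1 (0.993). Fst, the activin-binding protein follistatin, differed by -3.49 ± 0.16 between mutant and wild-type ovaries and by -1.40 ± 0.19 at P3 (adjusted p = 0.0641). Glb1 and Myct1 hardly differed at P3, by 0.07 (adjusted p = 0.943) and -0.05 (adjusted p = 0.984). For Nr0b1 they were Atp13a4 (0.987), Znfx1 (0.987) and Arap2 (0.986). All were, like Nr0b1, higher in wild-type ovary 1 than in ovary 2, a gap that the ranking on the same arrays favours. The genes ranked for Nr5a1 and Nr0b2 were higher in wild-type ovary 1 too. For Nr5a1 they were Paics (0.999), Zfp36l2 (0.997) and Dusp7 (0.997), and for Nr0b2 Vkorc1 (0.991), Nenf (0.990) and Tceal8 (0.990).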

How the data were processed

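Per the labels, adult organs were perfused and 300 ng of RNA went onto each array, and P3 ovaries were not perfused and took 1 µg with a CodeLink labelling protocol, although MAS5 belongs to Affymetrix arrays. The authors used RMA (Affymetrix Expression Console) for the adult log2 values and MAS5 for the P3 signals, which are linear intensities, per the submitters' processing notes, which give no versions here. No batch is named.

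Genes were taken from GEO's platform annotation, with symbols updated through RefSeq (GRCm38.p6): 21789 of 35557 adult and 34958 of 45101 P3 probe sets had 1 gene, 1621 and 932 had several and were left out, and 12147 and 9211 are unnamed here. Each gene was represented by its probe set with the highest mean. limma 3.58.1 (R 4.3.3) fitted the 8 adult arrays together on log2 values, and the 4 P3 arrays as log2(signal + 16), with lmFit and eBayes with an intensity trend, and was tested on simulated data. Tests were two-sided, with Benjamini-Hochberg adjustment over all genes and a threshold of 0.05. Named genes were the 4 members, Foxl2, genes of 7 lists and 8 marker lists, and the 3 genes most like each member. Members and lists were chosen with earlier results of these data known. Alternatives left out each array, replaced the fit, filter, pseudocount or probe set rule, centred arrays on their medians, or used the replicate number as a block. The labels' single animals and pools are the replicates.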

Additional observations from a re-analysis of the deposited data

How the results depend on the processing

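Over the 4 receptors and 4 comparisons, 212 values kept their direction and side of the threshold under the alternatives run, 10 were weaker, 1 was stronger and 2 reversed. Nr5a1 reversed to -0.16 in adult ovaries without wild-type ovary 2 and to -0.12 at P3 with probe sets averaged. The Amh difference of adult ovaries was 0.92 against ovary 2 alone and -2.10 against ovary 1 alone. Leaving out single arrays gave -0.16 to 0.63 for Nr5a1 in mutant against wild-type ovary, and at P3 2.15 to 2.30 for Nr0b1 and -2.44 to -2.05 for Nr5a2. For Nr5a2 minus Nr5a1 in adult ovaries it gave -4.28 to -3.66. Without an intensity trend the P3 differences kept their size, 2.23 for Nr0b1 and -2.24 for Nr5a2, but not their calls. Nr5a2 was at -2.24 with every probe set fitted and at -1.42 with probe sets averaged, and was called in neither. Genes called in adult mutant against wild-type ovary were 1731 (1154 higher, 577 lower) with those groups alone in the fit, against 3232. Genes called at P3 were 59 (25 higher, 34 lower), and 211 (106, 105) with a mean signal of at least 100, 0 without the trend, 22 (9, 13) with probe sets averaged and 36 (14, 22) with every probe set. Leaving out 1 pool left 0 to 22. The cause of these shifts was not tested. Nr0b2 has no value at a minimum mean level of 5. Same-numbered arrays did not deviate together (r of -0.003 to 0.079), so the replicate number does not pair them. With it as a block, 305 genes were called at P3 (153 higher, 152 lower), and in the adult comparisons 2674 (mutant and wild-type ovary), 11433 (testis and wild-type ovary) and 12136 (mutant ovary and testis), and no call of a receptor changed. Precision is limited by 2 wild-type ovaries and 2 pools a group.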
